A study of Mus musculus with 14 samples.

Results

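Gene expression was followed over the interval in which control mouse embryoid bodies passed from day 3 to day 5 of mesodermal differentiation. Embryoid bodies are floating aggregates that embryonic stem (ES) cells form once the factors that keep them undifferentiated are withdrawn. The libraries were chosen by their labels: 2 of control embryoid bodies at day 3 and 2 at day 5, hence 4 of the 14 libraries of the study. The control line is called iHA-Foxk1 in the labels, and its titles at days 3 and 5 carry the letters ND. The labels explain neither iHA nor ND and do not say whether a transgene was induced, so what the control levels of Foxk1 stand for is not known. The study set it beside a Foxk1 KO line, in which the forkhead transcription factor gene Foxk1 is disrupted, at days 3, 5 and 10, and beside KO embryoid bodies at day 10 whose title names IWR1. Each genotype is a single named line, and how many clones lie behind it was not given in the labels. ES cells of both lines were grown with LIF on irradiated fibroblast feeders, which a short plating step was used to remove before aggregation. Both lines were then differentiated by shaking in serum medium with transferrin, monothioglycerol and ascorbic acid, and polyadenylated RNA was sequenced.

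In the mouse embryo, the pluripotent epiblast forms the primitive streak under Wnt, Nodal, BMP and FGF signals, and cells that pass through the streak become mesoderm and endoderm. Mesoderm that leaves early gives yolk sac blood, vessels and heart, and mesoderm that leaves later gives the paraxial tissue that forms somites. Embryoid bodies run through the same gene programmes in the same order, without the embryo's layout.

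The 4 control libraries held 10574194 to 11192435 assigned reads, and 17461 to 17929 genes had at least 1 read in each. The mitochondrially encoded share of reads was 2.61% and 2.45% at day 3 and 4.26% and 5.32% at day 5. Levels are given as CPM, the reads of a gene scaled to library size. Foxk1 itself (ENSMUSG00000056493.9, chromosome 5, 142401497 to 142462011, build GRCm38 as for all positions below) read 86.3 and 76.4 CPM at day 3 and 134 and 133 CPM at day 5 in control, and 16.2 and 16.5 CPM at day 3 and 38.2 and 33.6 CPM at day 5 in KO. The KO libraries were thus below all control libraries on each day, with reads still present. Control replicates differed by somewhat more than sampling noise at day 3 (chi-square of 1.87 per gene) and by more at day 5 (3.91), whereas the KO libraries of day 5 stood apart from each other (20.4) and feed the spread shared by all tests. The labels do not say that replicates came from separate cultures, so p-values measure the spread between these libraries, which may be technical.

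Day 5 differed from day 3 over most of the transcriptome. Of 14430 genes that passed a filter on low counts and were tested with edgeR's quasi-likelihood test, 8780 were called at a Benjamini-Hochberg adjusted p under 0.05 (60.8%), of which 4420 rose (30.6%) and 4360 fell (30.2%). A change of over 2-fold was called higher for 2037 genes (14.1%) and lower for 1686 (11.7%), and one of over 16-fold for 348 and 211. The median log2 fold change over all genes tested was -0.01. For 12106 genes (83.9%) the day 3 and day 5 libraries did not overlap. Most genes named below were chosen by a small p or a large change in these same libraries. Separation of the 2 days in them, where stated, is therefore no added support. In the 4 control libraries alone 9669 genes were called. In bulk RNA, fewer cells of a type and less RNA per cell cannot be told apart, and this holds for every gene below.

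**Figure D1:**
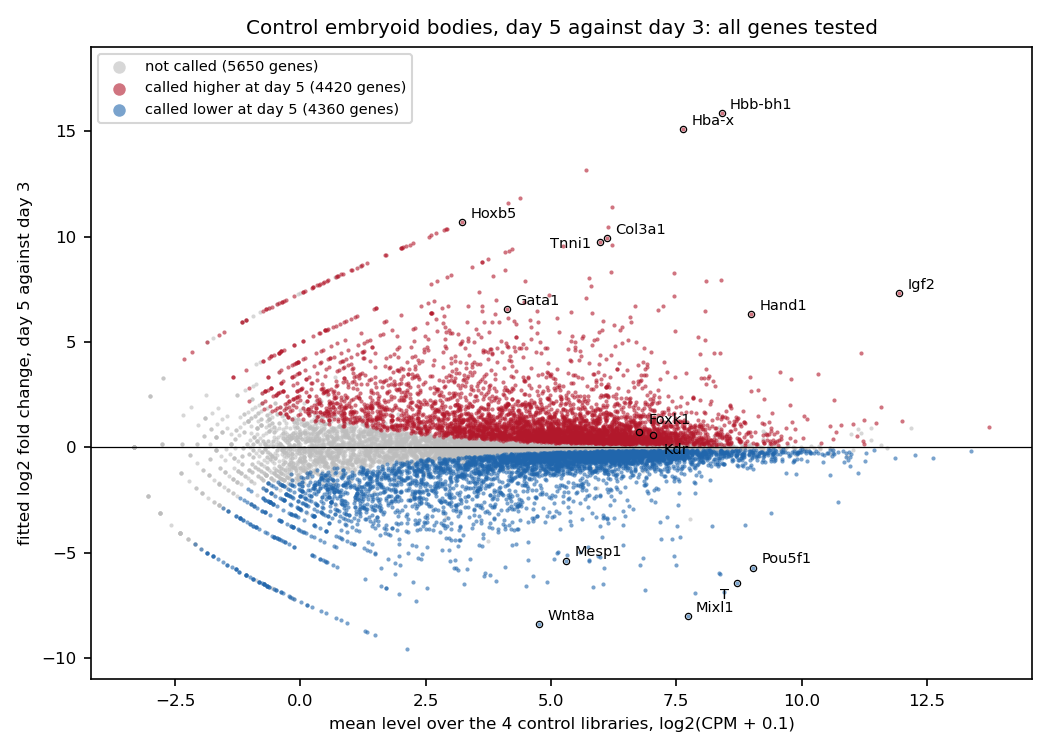
Each point is a gene of the 14430 tested, placed by its mean level over the 4 control libraries (log2 of CPM plus 0.1) and its fitted log2 fold change from day 3 to day 5. Red points were called higher (4420) and blue points lower (4360) at an adjusted p under 0.05. The diagonal streaks at the edges are genes with no or very few reads on a day, whose fitted fold changes are not bounds. Circled genes are named in the text.

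Pluripotency genes fell together between the days. Of 14 core pluripotency factors, 12 fell and none rose, with a median log2 fold change of -3.65. Pou5f1 (also called Oct4; ENSMUSG00000024406.16, chromosome 17, 35506018 to 35510772), which holds cells in the pluripotent state, read 1022 and 1025 CPM at day 3 and 18.4 and 20.8 CPM at day 5. Both day 5 libraries were far below both day 3 libraries (log2 fold change -5.71 ± 0.41 with an adjusted p of 0.000319, SE after the ± sign here and below). Nanog, which acts beside it, fell from 223 and 222 to 5.05 and 6.56 CPM (log2 fold change -5.26 ± 0.31 with an adjusted p of 6.63e-05), and Sox2, the partner of Pou5f1, from 54.7 and 53.6 to 4.96 and 4.27 CPM (log2 fold change -3.55 ± 0.30). Tdgf1, the Nodal co-receptor also called Cripto, fell from 702 and 686 to 3.96 and 7.75 CPM (log2 fold change -6.89 ± 0.46 with an adjusted p of 0.000213). The 2 core genes that did not pass the test encode RNA-binding proteins, Lin28b (93.7 and 97.2 CPM at day 3 and 71.9 and 80.2 CPM at day 5, adjusted p = 0.0747) and Trim71 (209.6 and 217 CPM at day 3 and 217 and 229.5 CPM at day 5, adjusted p = 0.589).

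Genes of the naive and the primed states also fell. Of 14 naive genes 11 fell and 2 rose (1 without day 3 library 1, day 3 library 2 or day 5 library 1), among the falls Klf5 (from 28.97 and 30.9 to 5.25 and 6.26 CPM), Klf2 (from 17.7 and 19.3 to 3.96 and 4.87 CPM) and Esrrb (from 40.6 and 33.4 to 5.25 and 5.46 CPM), which encode transcription factors of undifferentiated ES cells. Of 12 genes of the primed epiblast, 9 fell and 1 rose. The de novo DNA methyltransferase gene Dnmt3b was at 1209 and 1209 CPM at day 3 and 139 and 141 CPM at day 5 (log2 fold change -3.11 ± 0.33 with an adjusted p of 0.00130). Zic2, a zinc finger factor of the epiblast, fell from 206 and 222 to 4.26 and 4.57 CPM. Dnmt3l, a catalytically inactive cofactor of the methyltransferases, fell from 36.5 and 34.6 to 1.88 and 0.994 CPM. None of the day 5 libraries reached a day 3 library for these genes.

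The primitive streak programme was present at day 3 and nearly gone at day 5. All 17 listed streak genes were tested and all 17 fell, 16 of them by over 2-fold, with a median log2 fold change of -5.37. This list, like all lists here, was chosen with earlier results of these data known. Their summed level was 3285 and 3405 CPM at day 3 and 189 and 240.2 CPM at day 5. T (Brachyury; ENSMUSG00000062327.10, chromosome 17, 8434423 to 8442496), the T-box factor that defines the streak, read 797 and 849.9 CPM at day 3 and 6.94 and 12.3 CPM at day 5 (log2 fold change -6.42 ± 0.50 with an adjusted p of 0.000436). Eomes, a T-box factor of the early streak, read 638 and 663 CPM at day 3 and 6.94 and 12.9 CPM at day 5 (log2 fold change -6.03 ± 0.46 with an adjusted p of 0.000373). The mesendoderm homeobox gene Mixl1 read 422 and 421 CPM at day 3 and 1.29 and 1.99 CPM at day 5 (log2 fold change -7.998 ± 0.15 with an adjusted p of 6.96e-09). In each of these genes both day 3 libraries were close to each other and far above both day 5 libraries.

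Other roles within the streak followed the same direction. Gsc, a homeobox gene of the anterior streak and organizer, fell from 50.1 and 48.4 to 0.595 and 0.795 CPM. Nodal, the ligand that induces the streak, fell from 104 and 107 to 2.38 and 2.68 CPM, and its secreted inhibitor Lefty2 fell from 125 and 119 to 3.37 and 3.18 CPM. Wnt3, the ligand needed for streak formation, fell from 95.1 and 91.9 to 12.8 and 13.3 CPM, and the posterior streak factor gene Evx1 from 118 and 123 to 12.5 and 11.8 CPM. Mesp1 (ENSMUSG00000030544.5, chromosome 7, 79792241 to 79793788), a factor of nascent mesoderm that marks heart and head mesoderm precursors, read 72.9 and 80.04 CPM at day 3 and 0.396 and 3.28 CPM at day 5 (log2 fold change -5.37 ± 0.57 with an adjusted p of 0.000584). The day 5 libraries of Mesp1 stood well apart from each other, and both lay far below day 3.

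Promoters of Sp5 and Mesp1 are shown because both genes are textbook readouts of streak signals: Sp5, a transcription factor gene, is a direct target of Wnt signalling and fell from 106 and 120.5 to 0.892 and 1.39 CPM (log2 fold change -6.62 ± 0.44 with an adjusted p of 5.23e-05). The sequences are RefSeq promoters of build GRCm38.p6, 5′ to 3′ on the gene's strand, from 250 bases before to 50 bases after the start of transcription. Capitals mark CTTTGAT, a core motif of TCF factors, and TCACACC, a core of the T-box motif, searched on both strands.
Sp5, chr2:70474673-70474972, plus strand: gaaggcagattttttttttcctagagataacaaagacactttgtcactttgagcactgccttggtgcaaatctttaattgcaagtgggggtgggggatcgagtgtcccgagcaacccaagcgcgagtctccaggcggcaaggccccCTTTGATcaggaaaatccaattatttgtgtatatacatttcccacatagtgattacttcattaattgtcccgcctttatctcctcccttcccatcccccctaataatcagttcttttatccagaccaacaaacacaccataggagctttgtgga
Mesp1, chr7:79793541-79793840, minus strand: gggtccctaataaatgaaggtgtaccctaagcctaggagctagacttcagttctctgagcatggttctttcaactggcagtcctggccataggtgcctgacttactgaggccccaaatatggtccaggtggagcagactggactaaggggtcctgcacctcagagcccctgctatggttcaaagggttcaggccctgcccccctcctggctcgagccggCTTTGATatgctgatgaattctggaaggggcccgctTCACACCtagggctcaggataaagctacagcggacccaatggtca
The TCF motif began 104 bases before the start in Sp5 and 31 bases before it in Mesp1, and the T-box motif began at base 6 after the start in Mesp1. CTTTGAT was present in 3.73% of all 32851 promoters of the table and TCACACC in 3.98%. Of the 12 streak genes with a promoter in the table, 2 held CTTTGAT and 1 held TCACACC. Here a gene counted if any of its promoters matched, whereas the shares over all are per promoter. Most thus lacked both motifs, and the promoters shown are not typical of the list. A match is a description of letters, not of binding.

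Genes of the paraxial and presomitic mesoderm, the tissue that forms somites, were low at day 3 and lower at day 5. Of 18 members 12 passed the filter on low counts, and of these 8 fell and none rose, whereas DESeq2 and the control libraries alone gave 1 rise each. Tbx6, the T-box factor that separates paraxial mesoderm from neural fate, fell from 14.1 and 15.1 to 1.39 and 0.994 CPM (log2 fold change -3.61 ± 0.31 with an adjusted p of 1.07e-05). Msgn1, a basic helix-loop-helix factor of presomitic mesoderm, fell from 5.02 and 4.75 to 0.396 and 1.39 CPM (log2 fold change -2.44 ± 0.50 with an adjusted p of 0.00293). The Notch ligand gene Dll3 fell from 44.7 and 44.1 to 1.39 and 2.48 CPM (log2 fold change -4.51 ± 0.34) and the Notch modifier Lfng from 6.87 and 6.60 to 0.396 and 0.696 CPM. The somite genes Meox2 and Uncx had no read in any of the 4 libraries. Day 5 levels of Cdx2, a posterior patterning gene, were above day 3 without passing the test (11.01 and 12.4 CPM at day 3 and 33.8 and 27.8 CPM at day 5, adjusted p = 0.0807).

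Lateral plate genes moved the other way. Of 13 tested genes of lateral plate and intermediate mesoderm, 11 rose and 2 fell, the falls being the homeobox gene Lhx1 and Snai1, a repressor of epithelial genes, of which Snai1 was named after its values were seen. Hand2 (ENSMUSG00000038193.4, chromosome 8, 57320983 to 57324633), a factor of lateral plate and heart, read 2.64 and 2.29 CPM at day 3 and 101 and 91.8 CPM at day 5 (log2 fold change 5.29 ± 0.14 with an adjusted p of 6.12e-08). Bmp4, a ligand that ventralizes mesoderm, read 14.4 and 14.4 CPM at day 3 and 238 and 216 CPM at day 5 (log2 fold change 3.98 ± 0.26 with an adjusted p of 7.34e-05). Foxf1, a forkhead factor of splanchnic mesoderm, read 1.41 and 1.94 CPM at day 3 and 57.98 and 48.3 CPM at day 5 (log2 fold change 4.98 ± 0.40 with an adjusted p of 7.25e-05). All day 5 libraries stood above all day 3 libraries for these genes. Hand1, a partner of Hand2 in heart and extraembryonic mesoderm that was named after its values were seen, rose from 12.6 and 12.7 to 1051 and 969 CPM (log2 fold change 6.32 ± 0.60 with an adjusted p of 0.000840). Prrx2, a homeobox gene of mesenchyme, rose from 2.38 and 2.11 to 34.8 and 27.2 CPM, and the LIM homeobox gene Isl1, which marks precursors of outflow tract and right ventricle, rose more modestly from 4.23 and 3.35 to 11.7 and 12.9 CPM (log2 fold change 1.70 ± 0.24 with an adjusted p of 0.000270).

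Regulators of heart development mostly rose. Of 18 tested cardiac progenitor regulators 15 rose and 2 fell, with a median log2 fold change of 3.65. Gata4, a zinc finger factor of heart and endoderm, was already present at day 3 and rose from 48.8 and 45.2 to 109 and 109 CPM (log2 fold change 1.22 ± 0.11 with an adjusted p of 2.28e-05). Tbx20 rose from 7.57 and 4.93 to 211 and 193 CPM (log2 fold change 5.01 ± 0.24 with an adjusted p of 6.89e-06) and Tbx2, a repressor of chamber genes, from 1.76 and 0.969 to 42.02 and 41.5 CPM (log2 fold change 4.92 ± 0.23). Tbx5, a T-box factor of atria and left ventricle, rose from 0.792 and 0.704 to 9.12 and 7.65 CPM (log2 fold change 3.47 ± 0.39 with an adjusted p of 5.94e-05). Smarcd3, a cardiac subunit of chromatin remodelling complexes, rose from 3.17 and 2.99 to 73.6 and 82.3 CPM, and Gata5 from 0.0880 and 0.440 to 27.1 and 21.6 CPM. Nkx2-5, the homeobox gene of committed heart precursors, remained low at 0.0880 and 0.0881 CPM at day 3 and 1.29 and 1.49 CPM at day 5 (adjusted p = 0.00275), with 2 reads over both day 3 libraries, which gives a ratio of 15.8-fold, with a 95% counting interval of 3.98 to 137. The smooth and cardiac muscle coactivator gene Myocd rose from 0.176 and 0.0881 to 6.54 and 7.05 CPM, a ratio of 51.5-fold, with a 95% counting interval of 17.2 to 253. The count of falls was 1 rather than 2 when any single control library was left out.

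Structural genes of heart muscle were mixed. Of 24 listed sarcomere and excitation genes, 19 were tested, 12 rose and 4 fell. Tnnt2, cardiac troponin T, read 0.176 and 0.264 CPM at day 3 and 28.7 and 30.2 CPM at day 5 (log2 fold change 6.99 ± 0.33 with an adjusted p of 3.83e-07). Tnni1, the slow skeletal troponin I that the embryonic heart uses, read 0.0880 and 0.176 CPM at day 3 and 129 and 121 CPM at day 5 (adjusted p = 9.33e-05), and with 3 reads at day 3 the ratio was 946-fold, with a 95% counting interval of 323 to 4592. Tnnc1, the calcium-binding troponin of slow and cardiac muscle, rose from 1.06 and 1.32 to 17.05 and 12.9 CPM, Myl4, an embryonic atrial light chain, from 0.704 and 0.969 to 9.32 and 7.45 CPM, and the calcium channel gene Ryr2 from 0.968 and 1.67 to 13.2 and 13.8 CPM. All 5 genes had day 5 libraries above day 3 libraries. Acta1, skeletal alpha-actin, fell from 5.28 and 5.72 to 1.39 and 0.795 CPM. The main atrial myosin gene Myh6 read 2.38 and 1.85 CPM at day 3 and 2.38 and 2.98 CPM at day 5 (adjusted p = 0.485) and the atrial light chain Myl7 3.96 and 3.17 CPM at day 3 and 4.16 and 4.27 CPM at day 5 (adjusted p = 0.645), and neither passed the test. Reads of Myl2, the ventricular light chain, were absent from both day 5 libraries. Leaving out day 3 library 2 gave 1 fall among the list, day 5 library 1 gave 2 and day 5 library 2 gave 2.

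Smooth muscle and epicardial genes mostly rose. Of 11 tested smooth muscle genes 8 rose and 1 fell, against 2 falls without either KO library of day 5. Cald1, the actin-binding protein caldesmon, rose from 61.8 and 58.2 to 516 and 462 CPM (log2 fold change 3.03 ± 0.33 with an adjusted p of 0.00122), the intermediate filament gene Des from 6.69 and 6.96 to 28.9 and 27.9 CPM and Synpo2 from 1.58 and 1.23 to 16.7 and 15.9 CPM, whereas Cnn1, calponin, fell from 19.7 and 19.5 to 2.08 and 2.19 CPM (log2 fold change -3.19 ± 0.15 with an adjusted p of 4.20e-07). Of 8 tested genes of epicardium and mesothelium, 5 rose and none fell, with 1 fall without day 3 library 1, day 5 library 2 or either KO library of day 5. Tcf21, a basic helix-loop-helix factor of epicardium and other mesenchyme, rose from 0 and 0.0881 to 5.95 and 4.87 CPM, and Wt1 from 0.176 and 0.528 to 2.38 and 2.58 CPM (log2 fold change 2.78 ± 0.51 with an adjusted p of 0.00112). Upk1b, a uroplakin of mesothelium, had no read at day 3 and 4.96 and 3.38 CPM at day 5, which is at least 31.6-fold higher with a floor of 3 reads over both day 3 libraries. The epicardial factor gene Tbx18 had a single read among the 4 libraries. Of the tested genes of epicardium and mesothelium 62.5% were called, beside 60.8% over all genes tested.

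**Figure D2:**
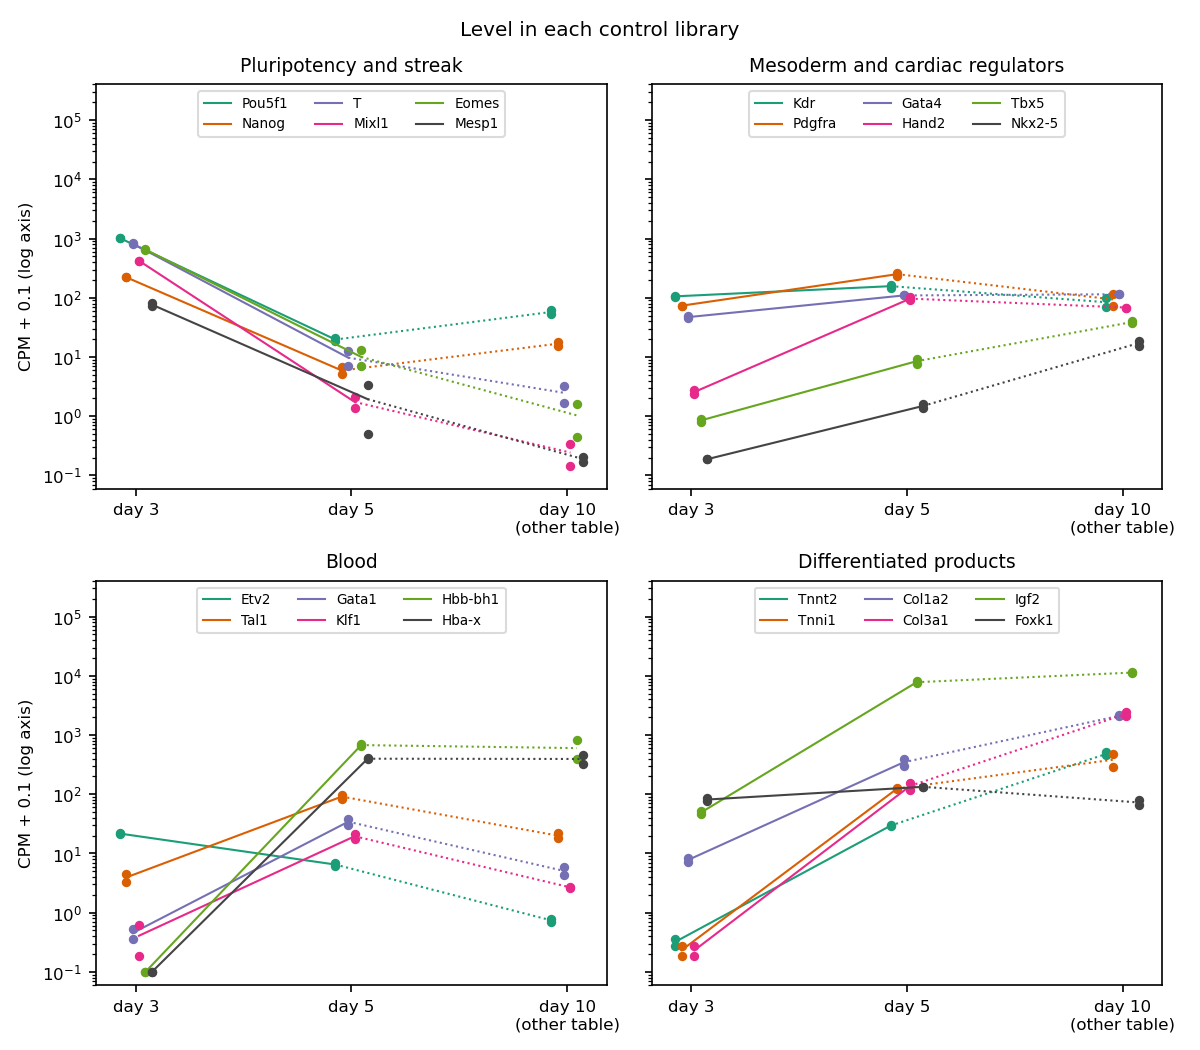
CPM plus 0.1 on a log axis for 24 genes in each control library at days 3, 5 and 10, with a point per library and a line through the group means. Dotted lines lead to day 10, which comes from another table and was not tested. Levels are not corrected for gene length and should be read along each line. Streak genes drop after day 3, globin genes appear between days 3 and 5, and Tnnt2 and Nkx2-5 are higher again at day 10.

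Blood genes rose at day 5. Of 20 tested blood progenitor and erythroid genes 18 rose and none fell, with a median log2 fold change of 4.63 (4.53 with genes without reads on a day set to their bound). In the control libraries alone, and without either KO library of day 5, 1 fell. Gata1 (ENSMUSG00000031162.14, chromosome X, 7959260 to 7978071), the factor that drives erythroid and megakaryocyte fate, read 0.440 and 0.264 CPM at day 3 and 30.7 and 37.9 CPM at day 5 (log2 fold change 6.56 ± 0.29 with an adjusted p of 2.57e-07). The red cell factor gene Klf1, an activator of globin transcription, read 0.0880 and 0.528 CPM at day 3 and 17.6 and 21.3 CPM at day 5 (log2 fold change 5.93 ± 0.66 with an adjusted p of 0.000122). Tal1, a basic helix-loop-helix factor required for all blood, read 4.40 and 3.26 CPM at day 3 and 84.5 and 98.1 CPM at day 5 (log2 fold change 4.57 ± 0.80 with an adjusted p of 0.00685). Day 5 libraries were above day 3 libraries in all 3 genes. The erythropoietin receptor gene Epor rose from 4.40 and 4.58 to 25.7 and 34.6 CPM. Gfi1b, which encodes a transcriptional repressor active in erythroid and megakaryocyte cells, rose from 0 and 0.0881 to 21.3 and 27.5 CPM, a ratio of 554-fold, with a 95% counting interval of 99.1 to 21945. Zfpm1, which encodes the GATA1 partner FOG1, rose from 30.5 and 32.6 to 154 and 165 CPM (log2 fold change 2.34 ± 0.13 with an adjusted p of 1.63e-06). The red cell anion exchanger gene Slc4a1 rose from 0.0880 and 0.0881 to 11.99 and 8.74 CPM, a ratio of 118-fold, with a 95% counting interval of 32.2 to 979. The pan-leukocyte gene Ptprc (CD45) had no read in any of the 4 libraries, and the myeloid factor gene Spi1 was too low to be tested (0.440 and 0.440 CPM at day 3 and 0.297 and 0.497 CPM at day 5).

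Globin genes were among the largest rises. Globins carry oxygen in red cells: Hba-x (zeta), Hbb-bh1 (beta H1) and Hbb-y (epsilon y) serve the primitive red cells of the yolk sac, and Hba-a1, Hba-a2, Hbb-bs and Hbb-bt the adult line, the alpha genes in both. Hbb-bh1 (ENSMUSG00000052217.6, chromosome 7, 103841637 to 103843164) had no read at day 3 and 656 and 698 CPM at day 5, at least 5126-fold higher (adjusted p = 0.00635). Hba-x had no read at day 3 and 404 and 393 CPM at day 5, at least 3018-fold higher (adjusted p = 0.00786). Both day 5 libraries were alike and both day 3 libraries empty. Hba-a1 rose from 0.0880 and 0 to 146 and 153 CPM, a ratio of 3394-fold, with a 95% counting interval of 609 to 134080.0. Hba-a2 rose from 0 and 0.0881 to 31.8 and 39.5 CPM, a ratio of 810.3-fold, with a 95% counting interval of 145 to 32050.0. Hbb-y rose from 0 to 12.7 and 13.1 CPM, at least 97.7-fold higher, and Hbb-bs from 0 to 14.4 and 14.2 CPM, at least 108-fold higher.

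All 6 globin genes that were tested rose, of 10 in the table, and the other 4 were too low to be tested. Those were Hbb-bt (0.892 and 0.199 CPM at day 5), Hbb-bh2 (0.694 and 1.29 CPM), Hbq1a (no read at day 5) and Hbq1b (0.694 and 0.795 CPM). The alpha-globin copies Hba-a1 and Hba-a2 are nearly identical, as are Hbb-bs and Hbb-bt, so the split of reads within each pair is uncertain. The summed level of the family went from 0.352 and 0.44 CPM to 1267 and 1313 CPM.

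Promoters of an alpha-type and a beta-type embryonic globin and of Klf1 are shown because these genes rose together. They come from the same RefSeq table, searched on both strands. Capitals mark TGATAA and AGATAA, which GATA factors bind. They also mark CACCC, which KLF factors bind, and the general promoter elements CCAAT and TATAAA.
Hba-x, chr11:32276350-32276649, plus strand: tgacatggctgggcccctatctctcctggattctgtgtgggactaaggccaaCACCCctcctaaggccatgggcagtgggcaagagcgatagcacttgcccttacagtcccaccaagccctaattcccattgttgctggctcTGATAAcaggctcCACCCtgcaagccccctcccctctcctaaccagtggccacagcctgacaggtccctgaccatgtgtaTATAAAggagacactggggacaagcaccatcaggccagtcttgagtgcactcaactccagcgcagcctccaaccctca
Hbb-y, chr7:103853158-103853457, minus strand: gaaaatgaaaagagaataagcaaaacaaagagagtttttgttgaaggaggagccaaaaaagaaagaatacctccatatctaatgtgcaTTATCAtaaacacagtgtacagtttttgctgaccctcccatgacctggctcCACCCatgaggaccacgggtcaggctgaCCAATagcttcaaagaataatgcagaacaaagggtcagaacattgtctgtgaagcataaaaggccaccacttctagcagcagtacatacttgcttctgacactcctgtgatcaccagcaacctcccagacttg
Klf1, chr8:84901732-84902031, plus strand: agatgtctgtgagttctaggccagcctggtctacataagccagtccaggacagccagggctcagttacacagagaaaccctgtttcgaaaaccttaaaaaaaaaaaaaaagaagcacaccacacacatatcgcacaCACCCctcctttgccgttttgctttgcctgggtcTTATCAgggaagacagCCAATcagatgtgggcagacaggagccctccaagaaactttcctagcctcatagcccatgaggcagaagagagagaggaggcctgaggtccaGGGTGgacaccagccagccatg
In Hba-x a TGATAA began 108 bases, a CACCC 95 bases and a TATAAA 28 bases before the start. In Hbb-y the CACCC began 111 bases and the CCAAT 83 bases before the start, and in Klf1 114 and 64 bases before it. Over all promoters of the table, TGATAA was present in 9.05%, AGATAA in 11.2%, CACCC in 57.5%, CCAAT in 37.4% and TATAAA in 13.6%. Of the 5 called globin genes with a promoter in the table, 4 held TGATAA, 1 held AGATAA, 5 held CACCC, 4 held CCAAT and 1 held TATAAA. Of the 14 called blood genes with a promoter in the table, among them Klf1, 4 held TGATAA, 2 held AGATAA, 14 held CACCC, 6 held CCAAT and 0 held TATAAA. These counts are per gene, with any of its promoters, while the shares over all are per promoter. Hba-a1 and Hba-a2 are near copies, so the globin counts are not separate observations. A match does not show binding.

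Haem, the iron-bearing group of haemoglobin, is made by a chain of enzymes, and 8 of 12 haem and iron genes rose while 2 fell. Slc25a37 (mitoferrin), which imports iron into mitochondria, rose from 35.5 and 35.1 to 147 and 163 CPM (log2 fold change 2.13 ± 0.08 with an adjusted p of 1.38e-07). Of the enzymes, Uros rose from 7.48 and 6.34 to 25.5 and 29.8 CPM (log2 fold change 1.998 ± 0.16 with an adjusted p of 7.41e-06), Ppox from 19.1 and 18.8 to 39.5 and 41.9 CPM and Fech, which inserts the iron, from 28.2 and 26.2 to 57.1 and 60.1 CPM. The transferrin receptor gene Tfrc read 273 and 276 CPM at day 3 and 277 and 311 CPM at day 5 (adjusted p = 0.193).

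Vessel genes were mixed and less stable. Of 21 tested haemangioblast and endothelial genes 13 rose and 3 fell, and the number that rose was 16 in the control libraries alone. It was 3 without day 3 library 1, 5 without day 3 library 2 and 6 without day 5 library 1, where the remaining library of that day was assumed to vary like the other groups. Etv2, the ETS factor that commits mesoderm to blood and vessel, was higher at day 3 and fell from 21.7 and 21.5 to 5.95 and 6.86 CPM (log2 fold change -1.75 ± 0.34 with an adjusted p of 0.00264). Kdr (ENSMUSG00000062960.10, chromosome 5, 75932827 to 75978458), the VEGF receptor of early mesoderm and endothelium, read 109 and 102 CPM at day 3 and 166 and 148 CPM at day 5. Its day 5 libraries lay above its day 3 libraries, but the change did not pass the test over all 8 libraries (log2 fold change 0.57 ± 0.33 with an adjusted p of 0.192). It passed in the control libraries alone (adjusted p = 2.98e-08) and without either KO library of day 5, and these KO libraries read 240.2 and 124 CPM. The angiopoietin receptor gene Tek rose from 1.497 and 1.58 to 75.9 and 63.3 CPM (log2 fold change 5.49 ± 1.03 with an adjusted p of 0.00885), Ets1 from 23.2 and 23.9 to 91.9 and 83.4 CPM (log2 fold change 1.90 ± 0.27 with an adjusted p of 0.00178) and the tight junction gene Cldn5 from 0.528 and 0.528 to 2.58 and 1.89 CPM. The falls numbered 3, and 1 without day 3 library 1, day 3 library 2 or day 5 library 1.

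Macrophage genes were close to absent on both days. Of 11 listed genes, Cd68 and Mrc1 were high enough to be tested in edgeR. Cd68, a lysosomal protein, read 5.81 and 5.55 CPM at day 3 and 4.06 and 4.37 CPM at day 5 (adjusted p = 0.121), and Mrc1, the mannose receptor, 0.968 and 1.32 CPM at day 3 and 2.48 and 2.19 CPM at day 5 (adjusted p = 0.207). Neither was called, whereas 1 rose in DESeq2 and without any single library other than day 5 control library 1 or the KO libraries of day 5, and 2 rose without either of the latter. The summed level of the list was 7.13 and 7.48 CPM at day 3 and 8.23 and 8.54 CPM at day 5, and C1qa and C1qb had no read.

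Hox genes, which pattern the body from head to tail, rose from near silence. Of 39 genes 22 were tested, and of these 18 rose and none fell. The median log2 fold change was 5.16 over the tested genes and 4.69 with genes without day 3 reads set to their bound. The summed level of the family went from 11.5 and 10.7 CPM to 250.04 and 229 CPM. Hoxb2 rose from 1.14 and 1.23 to 51.8 and 50.7 CPM (log2 fold change 5.42 ± 0.49 with an adjusted p of 0.000124) and Hoxb3 from 0.792 and 1.23 to 39.05 and 37.7 CPM (log2 fold change 5.23 ± 0.25 with an adjusted p of 3.78e-07). Hoxb4 and Hoxb5 had no read at day 3 and reached 14.4 and 15.6 CPM and 19.6 and 17.3 CPM, at least 113-fold and at least 139.8-fold higher. Hoxb6 rose from 0.0880 and 0 to 39.3 and 34.9 CPM, a ratio of 843-fold, with a 95% counting interval of 151 to 33341, and Hoxb8 from 0.264 and 0 to 14.7 and 15.4 CPM, a ratio of 114-fold, with a 95% counting interval of 38.6 to 555. Day 5 libraries stood above day 3 libraries in all of these. Hoxb1, the gene at the 3′ end of the cluster, did not pass the test (5.11 and 4.14 CPM at day 3 and 2.68 and 4.77 CPM at day 5, adjusted p = 0.491), and Hoxb13 had no read.

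In the Hoxb cluster, all genes from Hoxb2 to Hoxb9 rose. In the Hoxa cluster, Hoxa2 to Hoxa7 stayed under 1 CPM in all 4 libraries and were not tested. Levels of different genes are not compared here, because CPM is not corrected for length.

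**Figure D3:**
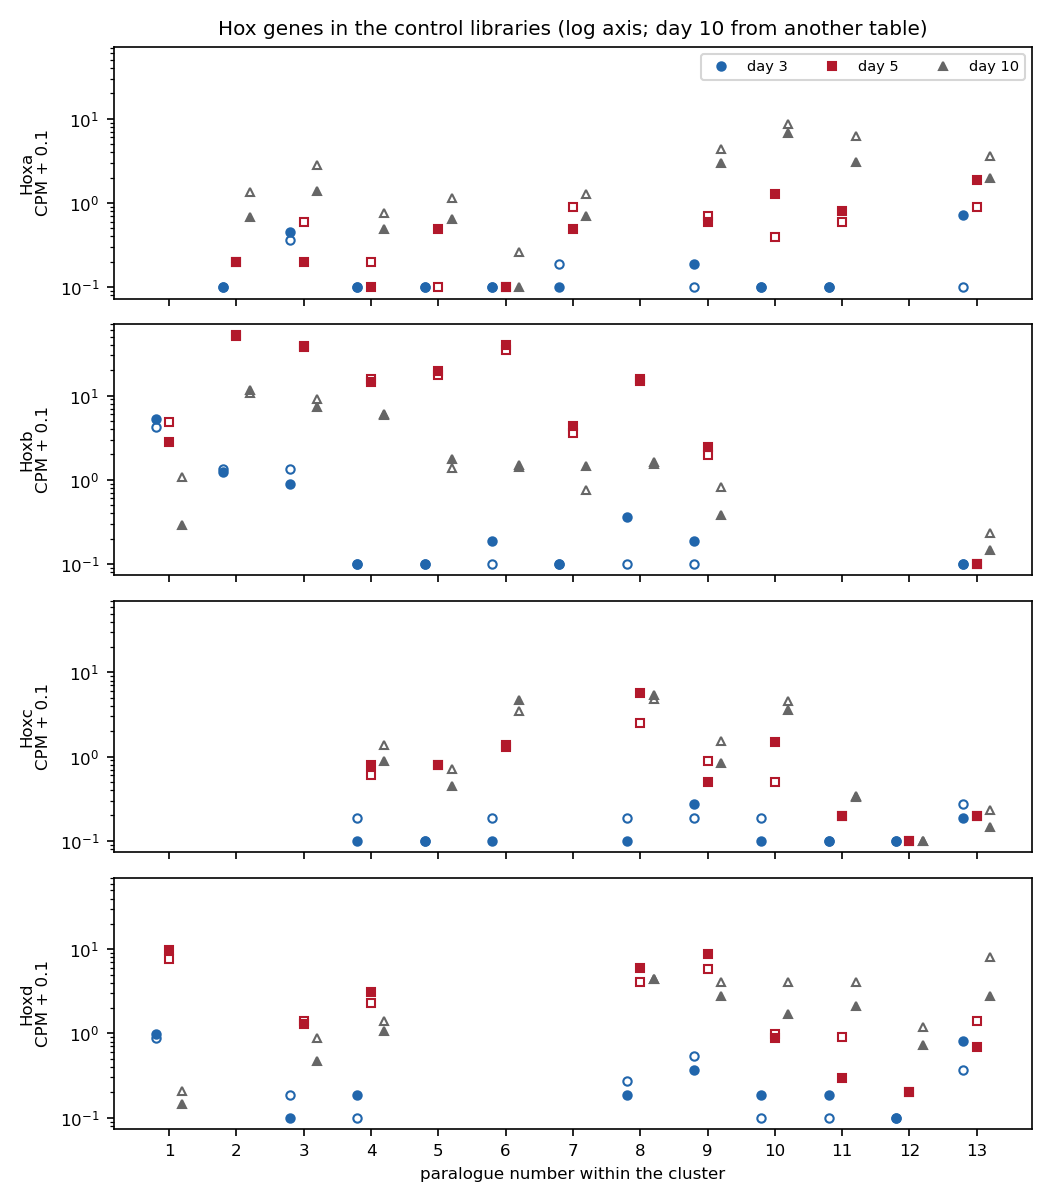
CPM plus 0.1 on a log axis for Hox genes of the 4 clusters, by paralogue number from the 3′ end, in control libraries of day 3 (blue circles), day 5 (red squares) and day 10 (grey triangles, another table), with filled symbols for library 1 and open symbols for library 2. Genes without reads sit at 0.1. Hoxb2 to Hoxb9 are higher at day 5 than on either other day, while Hoxa9 to Hoxa13 are highest at day 10.

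Genes of other lineages moved less uniformly. Of 15 tested genes of visceral endoderm and yolk sac, 12 rose and none fell. Ttr, the thyroxine carrier transthyretin, rose from 0.0880 and 0.0881 to 85.5 and 65.9 CPM, a ratio of 859.9-fold, with a 95% counting interval of 238 to 7107. Apob, an apolipoprotein, rose from 1.32 and 0.440 to 54.01 and 40.4 CPM (log2 fold change 5.73 ± 0.39 with an adjusted p of 7.24e-06), the nuclear receptor gene Hnf4a from 0.176 and 0.616 to 18.6 and 15.6 CPM and the endocytic adaptor Dab2 from 9.86 and 9.33 to 164 and 142 CPM (log2 fold change 3.995 ± 0.17 with an adjusted p of 5.07e-07). Day 5 libraries were above day 3 in each. Of 11 definitive endoderm genes 2 rose and 4 fell, and leaving out single libraries moved both counts by over 1.5 times (1 to 5 rising, 1 to 6 falling). Foxa1 rose from 2.11 and 2.64 to 11.1 and 11.2 CPM (log2 fold change 2.23 ± 0.32 with an adjusted p of 0.000253), while Foxa2 fell from 43.2 and 49.8 to 10.4 and 9.44 CPM (log2 fold change -2.23 ± 0.54 with an adjusted p of 0.0169) and lost its call without day 3 library 2 or either day 5 library. Sox17 read 8.80 and 9.86 CPM at day 3 and 14.8 and 14.3 CPM at day 5 (adjusted p = 0.176). Of the tested definitive endoderm genes 54.5% were called, beside 60.8% over all genes tested.

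Ectodermal and germ cell genes mostly fell. Of 11 tested neural genes 7 fell and 1 rose, a rise that was lost in DESeq2, in the control libraries alone and without any single library of day 3 or day 5 control library 1, among the falls Nes, the intermediate filament nestin (from 161 and 161 to 19.6 and 14.3 CPM), Dcx (from 5.37 and 6.43 to 0.396 and 0.298 CPM) and Stmn2 (from 50.5 and 40.8 to 3.07 and 5.07 CPM), and Neurog1 and Neurog2 had no read. Of 8 tested neural crest genes 5 fell and 2 rose. The falls numbered 3 when any single control library was left out. Foxd3, a forkhead factor of crest and epiblast, fell from 1.76 and 2.55 CPM to no read, at least 14.5-fold lower. Of 10 primordial germ cell genes 7 fell and 1 rose, such as Ddx4, the germ cell helicase Vasa, which fell from 11.4 and 10.8 to 0 and 0.199 CPM, a ratio of 112-fold, with a 95% counting interval of 30.8 to 932. Of 8 tested keratin and trophoblast genes 4 rose and 2 fell, and the paired simple epithelial keratins rose together, Krt8 from 140.0 and 138 to 924 and 828 CPM (log2 fold change 2.65 ± 0.06 with an adjusted p of 7.50e-09) and Krt18 from 54.7 and 50.7 to 538 and 484 CPM (log2 fold change 3.28 ± 0.11 with an adjusted p of 4.82e-07). The genes of the 2-cell-like state were too low to be tested, with summed levels under 3 CPM in all 4 libraries.

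Epithelial adhesion genes were mixed, and mesenchymal genes mostly rose. Of 12 epithelial genes 5 fell, 1 rose and 6 were not called, beside 30.2% lower and 30.6% higher over all genes tested. Cdh1, E-cadherin, fell from 385 and 379.7 to 78.4 and 92.4 CPM (log2 fold change -2.16 ± 0.17 with an adjusted p of 0.000164), the epithelial splicing factor gene Esrp1 from 130.2 and 122 to 18.6 and 19.5 CPM and Epcam from 122 and 117 to 38.3 and 40.6 CPM, while Cdh3, P-cadherin, rose from 20.8 and 23.4 to 131 and 105.0 CPM (log2 fold change 2.42 ± 0.19 with an adjusted p of 3.63e-05). Of 12 mesenchymal genes 9 rose and 2 fell. Snai2 (Slug), a repressor of epithelial genes, rose from 0.352 and 0.440 to 115 and 101 CPM (log2 fold change 8.05 ± 0.58 with an adjusted p of 9.21e-05), Zeb1 from 6.25 and 8.28 to 54.6 and 52.4 CPM and Twist2 from 0.440 and 0.792 to 23.3 and 23.9 CPM. Cdh2, N-cadherin, which the streak already uses, fell from 266 and 273 to 186 and 179 CPM (log2 fold change -0.56 ± 0.07 with an adjusted p of 0.000154), as did Snai1 (from 80.03 and 85.4 to 24.5 and 24.3 CPM). Day 3 and day 5 libraries did not overlap in any of these genes, as in 83.9% of all genes tested.

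The listed extracellular matrix genes all rose. All 26 were tested and all 26 rose, 25 by over 2-fold, with a median log2 fold change of 3.82. Since the list was chosen with earlier results of these data known, it is not a sample of all matrix genes. Col1a2, a chain of type I collagen, read 6.96 and 8.36 CPM at day 3 and 391 and 303 CPM at day 5 (log2 fold change 5.500 ± 0.17 with an adjusted p of 3.09e-07). Sparc, a collagen-binding glycoprotein, read 89.98 and 88.8 CPM at day 3 and 956 and 867 CPM at day 5 (log2 fold change 3.35 ± 0.22 with an adjusted p of 0.000112), and Tnc, tenascin C, 1.06 and 0.969 CPM at day 3 and 33.9 and 42.6 CPM at day 5 (log2 fold change 5.22 ± 0.42 with an adjusted p of 5.25e-05). Postn, periostin of mesenchyme, rose from 0 and 0.176 to 144 and 136 CPM, a ratio of 1591-fold, with a 95% counting interval of 440.1 to 13147, and Col3a1 from 0.176 and 0.0881 to 157 and 119 CPM, a ratio of 1048-fold, with a 95% counting interval of 358 to 5084. The lysyl oxidase gene Loxl2, which crosslinks collagen, rose from 12.9 and 13.6 to 215 and 186 CPM.

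Several of these matrix genes also mark fibroblasts, and the ES cells had been grown on fibroblast feeders. Of 9 tested genes of a list that feeder cells express, 8 rose and 1 fell, and the list's summed level was 37.8 and 39.5 CPM at day 3 and 1608 and 1331 CPM at day 5. The members that rose were Cd44, Col1a1, Col1a2, Col3a1, Dcn, Lum, Pdgfrb and Postn, of which Col1a1 and Pdgfrb were named after their values were seen. Of the defining genes, the collagen gene Col1a1 rose from 2.55 and 2.03 to 597 and 484 CPM and Postn rose as given above, while Thy1, a surface protein of fibroblasts, fell from 8.10 and 7.13 to 2.77 and 3.38 CPM (log2 fold change -1.30 ± 0.24 with an adjusted p of 0.00120). The members too low to be tested were Fap (0 and 0.176 CPM at day 3 and 0 and 0 CPM at day 5), Lox (0.440 and 0.264 CPM at day 3 and 0.793 and 0.199 CPM at day 5) and S100a4 (0 and 0 CPM at day 3 and 0 and 0.199 CPM at day 5). Whether feeder cells contributed to the matrix and fibroblast levels was not tested.

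Surface receptors and guidance genes mostly rose. Of 13 receptors that mark stages of mesoderm, 10 rose and 2 fell, with 1 fall without any single library of day 3 or day 5 control library 1. Pdgfra, a receptor of mesenchyme and paraxial and heart mesoderm, read 73.4 and 73.2 CPM at day 3 and 266 and 234 CPM at day 5 (log2 fold change 1.77 ± 0.21 with an adjusted p of 0.000696). Cd24a rose from 202 and 221 to 687 and 698 CPM (log2 fold change 1.71 ± 0.06 with an adjusted p of 1.15e-07), and the adhesion gene Vcam1 from 0.704 and 0.0881 to 14.96 and 13.4 CPM. Of 16 protocadherin and guidance genes 10 rose and 1 fell, against 2 falls without either KO library of day 5. Nrp1, a co-receptor for VEGF and semaphorins, rose from 16.8 and 13.8 to 545 and 502 CPM (log2 fold change 5.09 ± 0.18 with an adjusted p of 2.06e-06), Slit2, a ligand that repels growing axons, from 18.8 and 14.7 to 235 and 199 CPM (log2 fold change 3.70 ± 0.18 with an adjusted p of 4.82e-06), and Flrt3 from 9.51 and 12.9 to 57.9 and 63.99 CPM.

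**Figure D4:**
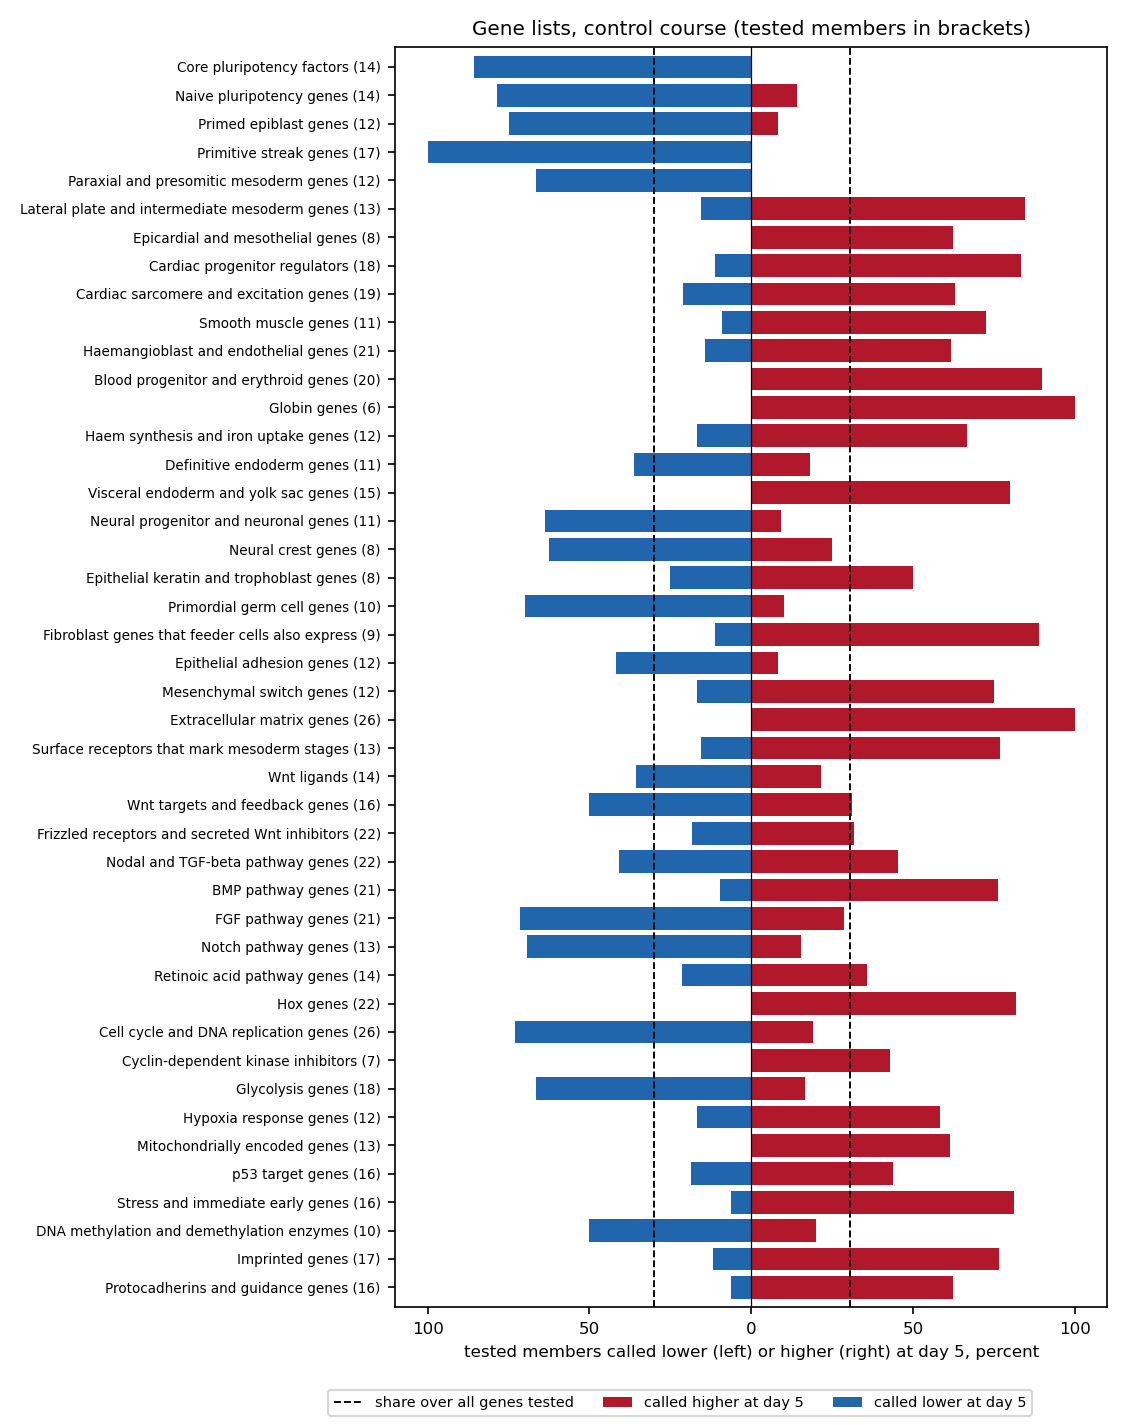
Bars give, for each gene list with at least 3 tested members, the percent of tested members called higher (right, red) or lower (left, blue) at day 5 in the control libraries, with the number tested in brackets. Dashed lines give the same shares over all 14430 genes tested, 30.6% higher and 30.2% lower. Streak and matrix genes are called throughout, in opposite directions, and of Wnt receptors 7 of 22 were higher and 4 lower.

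Wnt ligands and targets were mixed. Wnt ligands bind Frizzled receptors, and the canonical branch raises target genes through beta-catenin and TCF factors. Of 14 tested ligands 5 fell and 3 rose (57.1% called, beside 60.8% over all genes tested). Wnt8a, a streak ligand, fell from 55.9 and 52.5 to 0.0991 and 0.199 CPM, a ratio of 364-fold, with a 95% counting interval of 124 to 1768. Wnt3a fell from 10.7 and 8.54 to 0 and 0.0994 CPM, a ratio of 194-fold, with a 95% counting interval of 34.5 to 7709.7, and Wnt5b fell from 33.1 and 33.99 to 4.96 and 3.97 CPM (log2 fold change -2.91 ± 0.21 with an adjusted p of 3.21e-06). Wnt2, a ligand of lateral and heart mesoderm, rose from 4.67 and 6.87 to 22.5 and 17.6 CPM (log2 fold change 1.80 ± 0.25 with an adjusted p of 0.000243). Of 16 tested targets and feedback genes 8 fell and 5 rose. Axin2, a feedback inhibitor that canonical signalling induces, fell from 172 and 186 to 50.9 and 51.1 CPM (log2 fold change -1.81 ± 0.18 with an adjusted p of 0.000246), Tcf7 from 176 and 181 to 90.98 and 86.05 CPM and Sp8 from 43.1 and 47.6 to 1.09 and 1.09 CPM. Without day 3 library 1 or 2 the rising targets numbered 2, and without day 5 library 2 they numbered 3.

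The receptors of the pathway followed no single direction. Of 22 tested Frizzled receptors and secreted inhibitors 7 rose and 4 fell, close to or below the shares over all genes tested. In the control libraries alone 9 rose and 9 fell. The falls numbered 9 without either KO library of day 5, and 2 without day 3 library 1 or either day 5 control library. Fzd4 rose from 5.63 and 4.93 to 167 and 162 CPM (log2 fold change 4.96 ± 0.49 with an adjusted p of 0.000667), and the secreted inhibitor gene Sfrp2 fell from 25.4 and 24.04 to 6.94 and 6.56 CPM (log2 fold change -1.87 ± 0.15 with an adjusted p of 7.85e-06). The co-receptor genes Lrp5 (150.1 and 151 CPM at day 3 and 142 and 141 CPM at day 5) and Lrp6 (121 and 114 CPM at day 3 and 124 and 114 CPM at day 5) did not pass the test.

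Nodal and TGF-beta genes were mixed, and BMP genes mostly rose. Of 22 Nodal and TGF-beta genes 10 rose and 9 fell. Nodal and its co-receptor gene Tdgf1 fell, as above, while the TGF-beta ligand gene Tgfb2 rose from 6.08 and 4.40 to 189.7 and 173 CPM (log2 fold change 5.11 ± 0.15 with an adjusted p of 2.47e-08), its receptor Tgfbr1 from 69.2 and 69.9 to 156 and 140.4 CPM and the transducer Smad3 from 37.3 and 34.5 to 122 and 117 CPM. Furin, a protease that activates TGF-beta family ligands, rose from 61.9 and 58.5 to 281 and 278 CPM (log2 fold change 2.22 ± 0.06 with an adjusted p of 2.47e-08). Of 21 tested BMP genes 16 rose and 2 fell, or 1 without day 3 library 1, day 3 library 2 or day 5 library 1. The ligand gene Bmp5 rose from 3.87 and 2.20 to 198 and 183 CPM (log2 fold change 5.96 ± 0.19 with an adjusted p of 1.56e-07), and the BMP targets Id2 and Id3 from 10.6 and 8.54 to 106 and 107 CPM and from 46.3 and 44.7 to 188 and 187 CPM. Msx1, a homeobox target, rose from 67.9 and 73.3 to 198 and 189 CPM, and Smad9, a BMP transducer, from 0.352 and 0.440 to 26.5 and 23.2 CPM (log2 fold change 5.93 ± 0.33 with an adjusted p of 9.03e-07). Chrd, which encodes the secreted inhibitor chordin and was named after its values were seen, fell from 25.4 and 25.4 to 3.57 and 4.17 CPM.

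FGF and Notch genes mostly fell. Of 21 tested FGF pathway genes 15 fell and 6 rose. Dusp6, a phosphatase that FGF signalling induces and that restrains ERK, read 332 and 351 CPM at day 3 and 25.4 and 25.5 CPM at day 5 (log2 fold change -3.74 ± 0.08 with an adjusted p of 7.50e-09). The targets Spry4 and Etv4 fell from 70.8 and 70.9 to 10.2 and 9.84 CPM and from 60.4 and 67.1 to 6.44 and 8.35 CPM, and the ligand gene Fgf17 from 17.9 and 16.3 to 0.793 and 0.795 CPM. The 4 receptor genes, named after their values were seen, all rose, with Fgfr1 from 202 and 196 to 275 and 271 CPM, Fgfr2 from 6.87 and 5.90 to 106 and 96.97 CPM, Fgfr3 from 1.32 and 1.32 to 118 and 104.8 CPM and Fgfr4 from 1.06 and 0.792 to 8.32 and 7.15 CPM. Of 13 tested Notch genes 9 fell and 2 rose. The target Hes1 fell from 76.3 and 74.8 to 22.7 and 23.9 CPM (log2 fold change -1.70 ± 0.08 with an adjusted p of 4.76e-07) and the feedback gene Nrarp from 32.3 and 28.2 to 4.56 and 6.86 CPM, while Hey2, a target used in heart and vessel, rose from 2.55 and 3.52 to 21.2 and 21.96 CPM (log2 fold change 2.82 ± 0.27 with an adjusted p of 2.08e-05).

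Of 14 tested retinoic acid genes 5 rose and 3 fell, with 3 rises without day 3 library 1 and 1 fall without day 5 library 1. Cyp26a1, the enzyme that degrades retinoic acid in the streak, fell from 121 and 131 to 9.51 and 14.01 CPM (log2 fold change -3.42 ± 0.71 with an adjusted p of 0.0128) and lost its call without either day 5 library. Crabp1, a cellular binding protein, rose from 3.96 and 6.08 to 20.1 and 25.5 CPM (log2 fold change 2.18 ± 0.22 with an adjusted p of 3.30e-05). The synthesizing enzyme gene Aldh1a2 was under 1 CPM in all 4 libraries, and Aldh1a1 had no read. Of the tested retinoic acid genes 57.1% were called, beside 60.8% over all genes tested.

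Cell cycle genes mostly fell, by under 2-fold. Of 26 cell cycle and replication genes 19 fell and 5 rose, and 2 of the rises exceeded 2-fold. The rises numbered 3 without any single library of day 3, control or KO. The replication helicase subunit Mcm7 read 536 and 529.8 CPM at day 3 and 296 and 307 CPM at day 5 (log2 fold change -0.82 ± 0.05 with an adjusted p of 1.37e-06) and the mitotic cyclin gene Ccnb1 306 and 309 CPM at day 3 and 199 and 206 CPM at day 5 (log2 fold change -0.60 ± 0.04 with an adjusted p of 3.69e-06). The G1 cyclin gene Ccnd2 rose from 50.4 and 49.5 to 204 and 205 CPM (log2 fold change 2.03 ± 0.08 with an adjusted p of 1.56e-07). Of 7 inhibitors of cyclin-dependent kinases 3 rose, and 1 without day 3 library 1, day 3 library 2 or day 5 library 1. Cdkn1c (p57), an imprinted gene, rose from 28.7 and 28.5 to 696 and 563 CPM (log2 fold change 4.46 ± 0.23 with an adjusted p of 3.48e-05), while Cdkn1a (p21) read 55.9 and 58.99 CPM at day 3 and 48.8 and 60.9 CPM at day 5 (adjusted p = 0.612). Of 16 p53 targets 7 rose and 3 fell, and Pmaip1 (Noxa), a cell death gene, fell from 34.95 and 34.2 to 4.66 and 6.36 CPM. The shares called were 62.5% for p53 targets and 42.9% for the kinase inhibitors, beside 60.8% over all genes tested.

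Most glycolysis genes fell. Of 18 genes 12 fell and 3 rose, against 5 rises without day 5 control library 1 or day 5 KO library 1. Pkm, pyruvate kinase, read 3084 and 3136 CPM at day 3 and 1268 and 1442 CPM at day 5 (log2 fold change -1.20 ± 0.05 with an adjusted p of 5.10e-07), and Eno1, enolase, 1333 and 1325 CPM at day 3 and 531 and 589.8 CPM at day 5 (log2 fold change -1.25 ± 0.05 with an adjusted p of 1.31e-07). The transporter gene Slc2a3 rose from 353 and 334 to 1442 and 1366 CPM (log2 fold change 2.03 ± 0.10 with an adjusted p of 4.37e-06). Of 12 hypoxia response genes 7 rose and 2 fell, among them Vegfa, the vessel growth factor (from 12.3 and 12.2 to 119 and 110.3 CPM, log2 fold change 3.23 ± 0.09 with an adjusted p of 2.47e-08), and P4ha1, an enzyme that hydroxylates collagen (from 21.4 and 24.4 to 93.1 and 99.95 CPM). Of 13 mitochondrially encoded genes 8 rose and none fell, but the count was 0 without either day 3 library or day 5 library 2, and 3 without day 5 library 1. mt-Cytb, cytochrome b, read 2462 and 2406 CPM at day 3 and 5156 and 6360.4 CPM at day 5 (log2 fold change 1.24 ± 0.30 with an adjusted p of 0.0201). The share called among mitochondrially encoded genes was 61.5%, beside 60.8% over all genes tested. The part of the higher mitochondrial share of reads in the changes of other genes was not tested.

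Of 16 stress genes 13 rose and 1 fell, and leaving out single libraries gave 1 to 3 falls. Atf4, the factor of the integrated stress response, rose from 181 and 169 to 303 and 301 CPM (log2 fold change 0.79 ± 0.05 with an adjusted p of 1.89e-06), its target Trib3 from 10.8 and 7.57 to 45.1 and 46.6 CPM, the chaperone gene Hspa5 from 489.8 and 501 to 877 and 797 CPM and the immediate early gene Jun from 21.04 and 20.6 to 132 and 98.1 CPM.

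Most imprinted genes rose, and methylation enzymes were mixed. Of 10 methylation genes 5 fell and 2 rose (70% called, beside 60.8% over all genes tested). Tet1, which oxidizes methylcytosine in pluripotent cells, fell from 129 and 119 to 45.2 and 44.2 CPM (log2 fold change -1.47 ± 0.11 with an adjusted p of 9.69e-06), whereas Tet2 rose from 7.13 and 7.40 to 18.2 and 19.2 CPM and Tet3 from 27.9 and 27.3 to 103 and 104 CPM (log2 fold change 1.90 ± 0.14 with an adjusted p of 7.39e-06). Of 17 imprinted genes 13 rose and 2 fell, with a median log2 fold change of 2.23. Peg10 rose from 582 and 550.0 to 2649 and 2669 CPM (log2 fold change 2.23 ± 0.11 with an adjusted p of 7.82e-06), Nnat from 19.7 and 20.9 to 234 and 199 CPM (log2 fold change 3.41 ± 0.16 with an adjusted p of 2.53e-06) and Ndn from 29.3 and 27.03 to 148 and 134 CPM, and Snrpn fell from 247 and 243 to 128 and 123 CPM (log2 fold change -0.97 ± 0.05 with an adjusted p of 5.10e-07). Igf2, the fetal growth factor, was chosen for mention after its values were seen: it took 0.0053% and 0.0047% of reads at day 3 and 0.777% and 0.708% at day 5.

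Among the 20 largest rises and 20 largest falls of genes over 5 CPM, several lay outside the lists above. Tdo2, tryptophan dioxygenase, had no read at day 3 and 108 and 99.3 CPM at day 5, at least 784-fold higher (adjusted p = 0.00559). Nr1h5, a nuclear receptor, rose from 0 to 39.1 and 31.3 CPM, at least 267-fold higher. Pitx1, a homeobox factor of hindlimb and posterior mesoderm, rose from 0 to 51.7 and 31.6 CPM (adjusted p = 0.0266) and lost its call when any single control library was left out and in the control libraries alone. Svep1, a large adhesion protein, rose from 0.264 and 0.0881 to 158 and 138 CPM (log2 fold change 9.63 ± 0.88 with an adjusted p of 0.000495), and Popdc2, a membrane protein of heart muscle, from 0 and 0.0881 to 34.9 and 32.8 CPM, a ratio of 769-fold, with a 95% counting interval of 137 to 30403. On the other side, Fst, which encodes the activin inhibitor follistatin, fell from 449 and 478 to 2.18 and 5.37 CPM (log2 fold change -6.94 ± 0.25 with an adjusted p of 4.44e-06), Apln, the ligand apelin, from 125 and 134 to 1.59 and 1.29 CPM (log2 fold change -6.48 ± 0.20 with an adjusted p of 4.44e-08), the kinase gene Pim2 from 635 and 642 to 10.4 and 10.04 CPM and Upp1, uridine phosphorylase, from 231 and 232 to 1.59 and 2.58 CPM. The libraries of each day lay apart from those of the other day in these genes, as the choice required.

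The control course was set beside the same interval in Foxk1 KO embryoid bodies, to show where it differs. In KO, 7766 genes were called (53.8%), of which 4084 rose (28.3%) and 3682 fell (25.5%). Genes called higher in both courses numbered 2810, which is 63.57% of the control list and 68.81% of the KO list, and genes called lower in both 2607 (59.79% and 70.8%). The test of the difference between the courses called 3496 genes (24.2%), 1564 with the control change higher (10.8%) and 1932 with it lower (13.4%). Opposite calls were made for 239 genes that rose in control and fell in KO and for 247 that did the reverse. The difference was called for 5621 genes without KO library 1 of day 5. It was called for 2108 and 2072 without day 3 control library 1 and 2, for 2049 and 2074 without day 3 KO library 1 and 2, and for 2124 without day 5 control library 1. DESeq2 called 2313.

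The streak list had the highest share of called differences among the lists. Of 17 streak genes the control change was lower than the KO change for 15. In KO 8 of them rose and 4 fell between the days. Nodal was not lower in KO at day 3 (119 and 117 CPM, beside 104 and 107 CPM in control). It fell in KO to 20.7 and 31.2 CPM at day 5, and Lefty2 fell there from 85.5 and 80.3 to 13.7 and 19.3 CPM. The genes named next had lower day 3 levels in KO than in control. Mixl1 read 10.3 and 9.89 CPM at day 3 and 18.6 and 14.4 CPM at day 5 in KO, a small rise beside the fall in control (difference -8.70 ± 0.21, adjusted p = 1.16e-07). T read 55.5 and 76.1 CPM at day 3 and 20.7 and 44.9 CPM at day 5 in KO (difference -5.41 ± 0.65, adjusted p = 0.00638), and Eomes 140.3 and 165 CPM at day 3 and 62.8 and 119 CPM at day 5 (difference -5.28 ± 0.58, adjusted p = 0.00451). Lhx1, a LIM homeobox gene of early mesoderm and organizer, fell in control from 319 and 335 to 11.9 and 19.7 CPM and rose in KO from 1.68 and 1.77 to 42.6 and 125 CPM (difference -9.97 ± 1.06, adjusted p = 0.00434). Six2, a homeobox gene of kidney and head mesoderm, fell from 20.6 and 23.6 to 1.88 and 2.09 CPM in control and rose from 0.177 and 0.423 to 13.3 and 11.7 CPM in KO (difference -8.79 ± 0.38, adjusted p = 1.29e-06). Mesp1 had 3 reads over both day 3 KO libraries and read 0.177 and 0.0845 CPM at day 3 and 1.35 and 3.58 CPM at day 5 (adjusted p of the difference = 0.00666). In KO, day 5 libraries of Cyp26a1 differed over 3-fold from each other (1.24 and 1.61 CPM at day 3 and 41.1 and 141 CPM at day 5), beside its fall in control (difference -9.41 ± 1.20, adjusted p = 0.00764).

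Several mesoderm genes had the lower change in control. Gata4 rose from 3.36 and 2.03 to 103 and 122 CPM in KO, so its control rise was smaller (difference -4.17 ± 0.21, adjusted p = 4.62e-06), and day 5 levels overlapped between the lines. Hand2 had no read in KO at day 3 and 17.3 and 19.6 CPM at day 5 (adjusted p of the difference = 0.00300). Isl1 rose from 0.0884 and 0.0845 to 10.2 and 15.01 CPM in KO (adjusted p of the difference = 0.000261), Kdr, which was not called in control, from 5.66 and 4.48 to 240.2 and 124 CPM (difference -4.59 ± 0.57, adjusted p = 0.00607) and Pdgfra from 0.884 and 1.94 to 45.8 and 29.1 CPM (difference -2.93 ± 0.49, adjusted p = 0.00955). Aplnr, the apelin receptor of early mesoderm, fell from 129.5 and 134 to 84.5 and 79.3 CPM in control and rose from 1.33 and 0.845 to 153 and 104.7 CPM in KO (difference -7.57 ± 0.36, adjusted p = 4.47e-05). Its fall in control was called (adjusted p = 0.0129) and lost without day 3 library 2 or either day 5 library. For Tbx5, Nkx2-5 and Tnnt2 the difference between courses did not pass the test (adjusted p of 0.332, 0.383 and 0.165). At day 5, control libraries were above KO for Hand2 (101 and 91.8 CPM) and Pdgfra (266 and 234 CPM). They overlapped with KO for Isl1 and Kdr and were below KO for Aplnr.

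Where a difference was called, blood, matrix and stress genes mostly had the higher change in control. Of 20 blood genes the control rise was higher for 6 and lower for 1. Gata1 rose from 0.354 and 0.507 to 4.51 and 3.75 CPM in KO (difference 3.34 ± 0.60, adjusted p = 0.00373) and Klf1 read 0.177 and 0.423 CPM at day 3 and 1.26 and 0.175 CPM at day 5 (difference 4.72 ± 1.43, adjusted p = 0.0468). Among globins, Hbb-bh1 read 66.9 and 14.5 CPM and Hba-x 18.6 and 5.67 CPM in KO at day 5, below both control libraries and with the KO libraries over 3-fold apart. Hbb-y read 15.1 and 3.75 CPM in KO at day 5, 1 library above and 1 below both control libraries. The difference between the courses was not called for Hbb-bh1 and Hbb-y (adjusted p of 0.842 and 0.435). For Hba-x, without a read at day 3 in either line, it could not be estimated. With 0 control reads and 1 and 4 KO reads at day 3, the test could hardly decide for Hbb-bh1 and Hbb-y either. Of 26 matrix genes 9 rose more in control and none less, as Col1a2, which rose from 5.13 and 6.08 to 30.2 and 33.2 CPM in KO (difference 3.01 ± 0.28, adjusted p = 0.000313). Of 16 stress genes 10 had the higher change in control and 3 the lower. Chac1, a glutathione-degrading enzyme of the stress response, rose from 5.63 and 3.96 to 29.6 and 36.1 CPM in control and fell from 11.2 and 9.21 to 1.72 and 1.13 CPM in KO (difference 5.61 ± 0.35, adjusted p = 1.15e-05). Myrf, a membrane-bound transcription factor, rose from 31.3 and 32.8 to 345 and 301 CPM in control and fell from 78.8 and 76.6 to 26.2 and 21.99 CPM in KO (difference 5.03 ± 0.13, adjusted p = 1.16e-07). Smyd1, a methyltransferase of heart and skeletal muscle, rose from 0.264 and 0.0881 to 20.5 and 19.1 CPM in control and from 0.177 and 0.338 to 0.542 and 1.05 CPM in KO (difference 5.14 ± 0.94, adjusted p = 0.00394).

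Hox and cell cycle genes were called in similar numbers in both courses. Of 22 tested Hox genes 18 rose in each course, and the difference was called for 1. Of 26 cell cycle genes 19 fell in control and 17 in KO. The difference was called for 7 of them, 5 with the control change higher and 2 with it lower. That share is not below the 24.2% over all genes tested. A difference that misses the threshold does not show that the courses are alike, given the spread between the KO libraries of day 5. Foxk1 itself rose in both, less in control on the log2 scale (difference -0.42 ± 0.13, adjusted p = 0.0382).

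**Figure D5:**
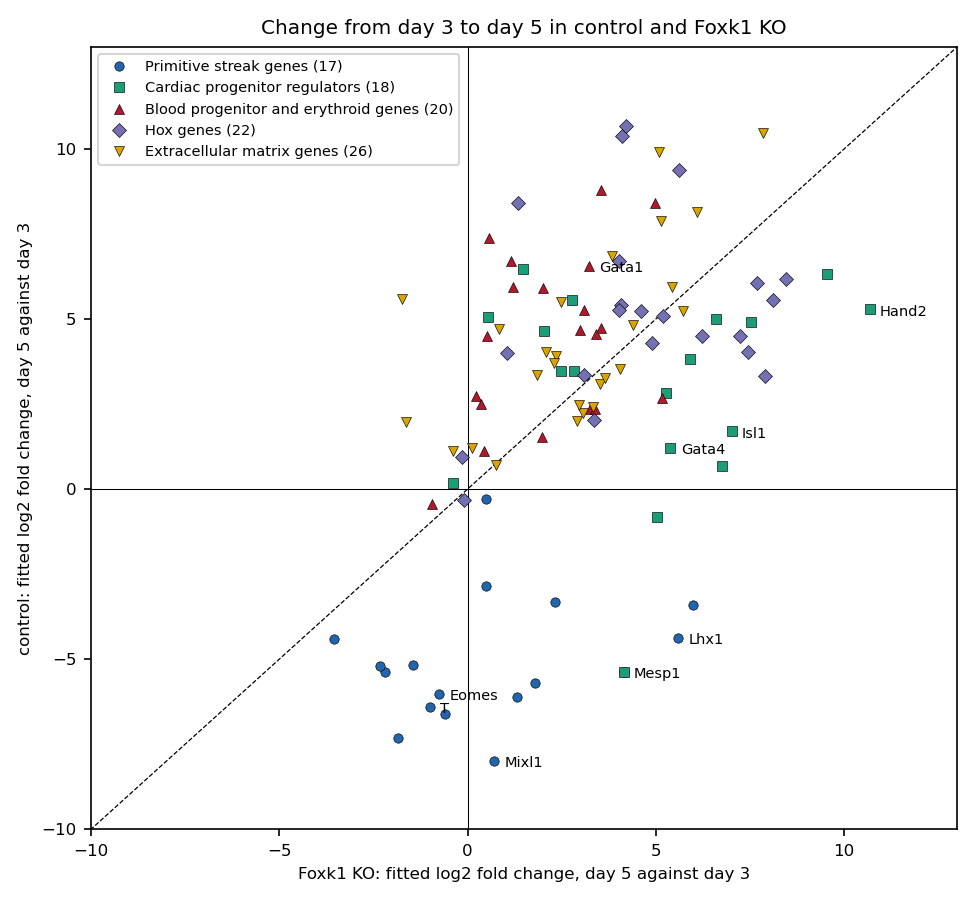
Fitted log2 fold change from day 3 to day 5 in control (vertical) against Foxk1 KO (horizontal) for the tested members of 5 lists, with the dashed line marking equal change. All 17 streak genes lie below the line, blood genes lie mostly above it, and Hox genes lie on both sides. Fitted values of genes without reads on a day are not bounds.

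Levels at day 10 come from a separate table, in which the libraries are titled as control without iHAFoxk1 or ND, although the extraction protocol names iHA-Foxk1 as the control on all 3 days. The table has 40672429 and 34999822 reads in the control libraries, and its levels are set side by side without a test. Streak genes were low, with a summed level of 21.3 and 28.4 CPM, and Mixl1 read 0.0466 and 0.238 CPM. The sarcomere list summed to 653 and 654 CPM at day 3, 1252 and 1212 CPM at day 5, and 8295 and 7026 CPM at day 10. Tnnt2 read 508 and 455 CPM and Nkx2-5 18.7 and 15.5 CPM at day 10. Blood regulators were lower than at day 5, with Gata1 at 5.74 and 4.21 CPM and Tal1 at 21.97 and 17.9 CPM, while the globin sum was 3164 and 2128 CPM. Hbb-y, at 12.7 and 13.1 CPM on day 5, stood at 667 and 553 CPM. Pluripotency genes were not wholly absent. Pou5f1 stood at 52.9 and 61.9 CPM and Nanog at 15.3 and 17.9 CPM, both above their day 5 levels. The naive list summed to 174 and 182 CPM at day 5 and 225 and 253 CPM at day 10. The core list was lower at day 10, with 1050 and 1043 CPM at day 5 and 310 and 372 CPM at day 10. Macrophage genes, near absent before, summed to 1019 and 934 CPM, and the matrix list to 13453 and 15071 CPM. Hoxb5 stood at 1.66 and 1.30 CPM.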

How the data were processed

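Polyadenylated RNA of embryoid bodies was sequenced. The authors deposited estimated counts per gene as whole numbers, made with kallisto 0.46.2 and mm10 per the submitters' processing notes. How transcripts were summed to genes is not stated in the labels, nor whether the kit kept strand, so overlapping and antisense genes cannot be told apart. All 36047 gene IDs were matched to names and positions by ID in the GENCODE vM21 annotation. Days 3 and 5 share 1 table and day 10 has another.

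The 8 libraries of days 3 and 5 were fitted together in edgeR 4.0.16 (R 4.3.3) with filterByExpr, TMM scaling and the robust quasi-likelihood F test. Contrasts were day 5 minus day 3 in control, in KO, and their difference, with Benjamini-Hochberg adjustment over 14430 genes and a threshold of 0.05. The fit had 4 residual degrees of freedom. CPM uses the TMM library sizes and is not corrected for gene length. Fitted fold changes are not printed for genes with 3 or fewer reads in a group. There a ratio has a 95% counting interval, which covers counting error only, and with no reads a bound uses 3 reads over the group. Replicates of day 3 and day 5 are numbered as in the column names. On simulated counts for the control course over 14430 genes, 62%, 74%, 92% and 98% of changes of 1.5, 2, 4 and 8-fold were recovered. In the simulation 50 genes per fold were changed, none at the lowest levels, and 14 unchanged genes were called. Far more genes changed in the data, so these rates need not hold there.

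Members and gene lists were chosen with earlier results of these data known. Named genes are index genes, up to 6 members per list with the smallest p and a mean of at least 1 CPM, all globins, the 20 largest rises and falls and the 8 largest differences each way over 5 CPM, and list members that did not pass the test. Exceptions are marked in the text, and a few genes that the rule selects are not reported here. Alternatives were DESeq2 1.42.0, other size factors, no filter, a replicate block, protein-coding genes, control libraries alone and leaving out each library. Sequences are RefSeq's, and the Hbb-bh1 promoter is not shown. Python 3.11.15 was used.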

Additional observations from a re-analysis of the deposited data

Results flagged for a closer look

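The genes below differed between the control course and the Foxk1 KO course in edgeR's quasi-likelihood test of the difference itself. Values are log2 differences, control minus KO, or its adjusted p where a group had too few reads for a fold. Since the genes were taken from the index genes and from those with the largest differences, they are not a sample of all genes.

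The genes that follow, mostly of the streak and early mesoderm, had the lower log2 change in control. This does not mean a lower day 5 level, since Hand2 and Pdgfra were higher in control at day 5. The difference was -9.97 for Lhx1, -9.41 for Cyp26a1, -8.79 for Six2, -8.70 for Mixl1 and -7.57 for Aplnr. It was -5.41 for T, -5.28 for Eomes, -4.59 for Kdr, -4.17 for Gata4 and -3.96 for Tbx6. Smaller differences were -2.93 for Pdgfra, -1.77 for Etv2 and -0.42 for Foxk1. The pluripotency genes Nanog and Pou5f1 had -2.61 and -2.58. The adjusted p was 0.00666 for Mesp1, 0.00162 for Msgn1, 0.0030 for Hand2, 0.000261 for Isl1, 0.0485 for Cer1, a secreted Nodal and BMP inhibitor, and 0.00551 for Gbp2b. Gbp2b had 0 reads at day 3 and 7 at day 5 in KO. Cer1 was called in neither course alone, and its KO libraries of day 5 stood apart (3.07 and 26.0 CPM).

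Other genes had the higher change in control. The difference was 5.61 for Chac1, 5.14 for Smyd1, 5.11 for Spon1, 5.03 for Myrf, 4.72 for Klf1, 3.34 for Gata1 and 3.01 for Col1a2. The adjusted p was 0.00629 for Cited4, 0.0124 for Popdc2 and 0.029 for Pakap.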

How the results depend on the processing

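No call of a named gene in the control course reversed under any alternative that was run. Of 296 named genes, the call was unchanged for 296 under relative log expression size factors and under protein-coding genes alone, 289 without the filter on low counts, 288 by DESeq2, 292 in the control libraries alone, and 277 to 293 when 1 library was left out. The control course had 6953 calls by DESeq2 and 9669 in the control libraries alone. Leaving out 1 library gave 7005 to 10056 calls in the control course (3518 to 5090 higher, 3455 to 4995 lower), 5619 to 8759 in the KO course (2943 to 4363 higher, 2676 to 4396 lower) and 2049 to 5621 for the difference (932 to 2689 higher, 1117 to 2932 lower). DESeq2 called 2313 differences, 1205 of them lower, against 3496 and 1932. The cause was not tested. With the replicate number as a block, 8638, 7610 and 3370 genes were called. Same-numbered libraries had correlations of deviations from -0.005 to 0.09, the largest between control and KO at day 5. Day 3 replicates differed by only somewhat more than sampling noise (chi-square of 1.87 per gene in control and 1.88 in KO). A pairing of the samples by number could therefore not be excluded. Genes below the floor of 3 reads over both libraries of each group could not be compared at this depth.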
